A study of Mus musculus with 9 samples.

Results

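The Kruppel-like factors described here were 9 genes of that family, Klf2, Klf3, Klf4, Klf5, Klf6, Klf9, Klf10, Klf13 and Klf15, taken by name from a table of normalized values that lists 26214 genes. RNA was sequenced from adipose stromal cells (ASCs) of the subcutaneous adipose tissue and from fibro-adipogenic progenitors (FAPs) of the quadriceps muscle, the mesenchymal progenitors of each tissue. All mice were C57Bl/6 (C57BL/6J in the study's methods, which describe young adult males), and all received an injection into the quadriceps 1 day before the cells were taken. ASCs (3 libraries) and FAPs (2 libraries) came from mice injected with NaCl, and injured FAPs (3 libraries) from mice injected with glycerol, which damages the myofibers. These cells were sorted as CD31-, CD45- and Sca-1+, and each library is described as a pool of cells from several animals. A single library of CD31+CD45+ cells of glycerol-injected muscle was not replicated and was left out of all tests. The comparisons asked how FAPs change after injury and how the progenitors of both tissues differ.

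Kruppel-like factors are transcription factors with a conserved zinc finger domain that binds GC-rich and CACCC sequences, and their divergent N-terminal parts recruit activators or repressors. In endothelium Klf2 and Klf4 respond to blood flow and restrain inflammation, and Klf4 is also one of the factors used to reprogram somatic cells. In the adipose lineage Klf4, Klf5, Klf6, Klf9, Klf13 and Klf15 are known to promote differentiation, whereas Klf2 and Klf3 are known to restrain it.

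Reads on genes numbered 24052508 and 24164447 for the FAP libraries, 26698572 to 27028114 for injured FAPs, 27349184 to 27481573 for ASCs and 13091077 for the CD31+CD45+ library. The labels were checked against 9 markers of mesenchymal progenitors. Each was above 0 in the 8 progenitor libraries and also in the CD31+CD45+ library, so only the level of these markers bears on the labels. Their summed value was 688810 to 764958 in injured FAPs, 1566162 and 1698481 in FAPs, 2782577 to 3195156 in ASCs and 64335 in the CD31+CD45+ library, and Col1a1 was the most abundant of them except in injured FAP replicate 3, where Col3a1 was. Single markers did not all follow this sum. Ly6a, the gene of the sort marker Sca-1, was at 17672 in the CD31+CD45+ library, above FAPs (16542 and 10823). Cd34 was at 17085 there, above injured FAPs (10736 to 11933). The other markers were lower in that library than in every progenitor library. After injury the markers went in both directions, the mean of Ly6a from 13682 up to 23491 and that of Cd34 from 31794 down to 11407. Differences were tested with limma on log2(value + 1), in a single fit of the 8 progenitor libraries, for 13601 genes whose mean reached 10. All 9 Kruppel-like factors passed this filter, and the lowest number of reads behind any of their values in these libraries was 26, for Klf15. Genes were called differentially expressed when the Benjamini-Hochberg adjusted p was below 0.05 and the log2 fold change exceeded 0.58 in size.

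After injury 5 of the 9 factors were lower in injured FAPs than in FAPs (Klf2, Klf3, Klf5, Klf13 and Klf15) and 1 was higher (Klf6). Over all tested genes 27.7% were called lower and 24.9% higher in this comparison. The median log2 fold change was -0.95 for the 9 factors and -0.05 for all tested genes. ASCs had higher levels than FAPs of 3 factors (Klf4, Klf6 and Klf9) and lower levels of 0, against 23.4% and 23.8% of all tested genes. The count of 0 was also 0 at an unadjusted p under 0.05, by edgeR and by DESeq2, and was 3 to 5 under the other scalings described below. In injured FAPs compared with ASCs 7 factors were lower (all but Klf10 and Klf13) and 0 higher, against 25.8% and 25.0% of all tested genes. That 0 was the same at an unadjusted p under 0.05, by edgeR and by DESeq2, and was 1 with equal library totals, where the 7 lower factors became 3. The 3 comparisons share libraries pairwise, so their results are not independent of each other.

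**Figure D1:**
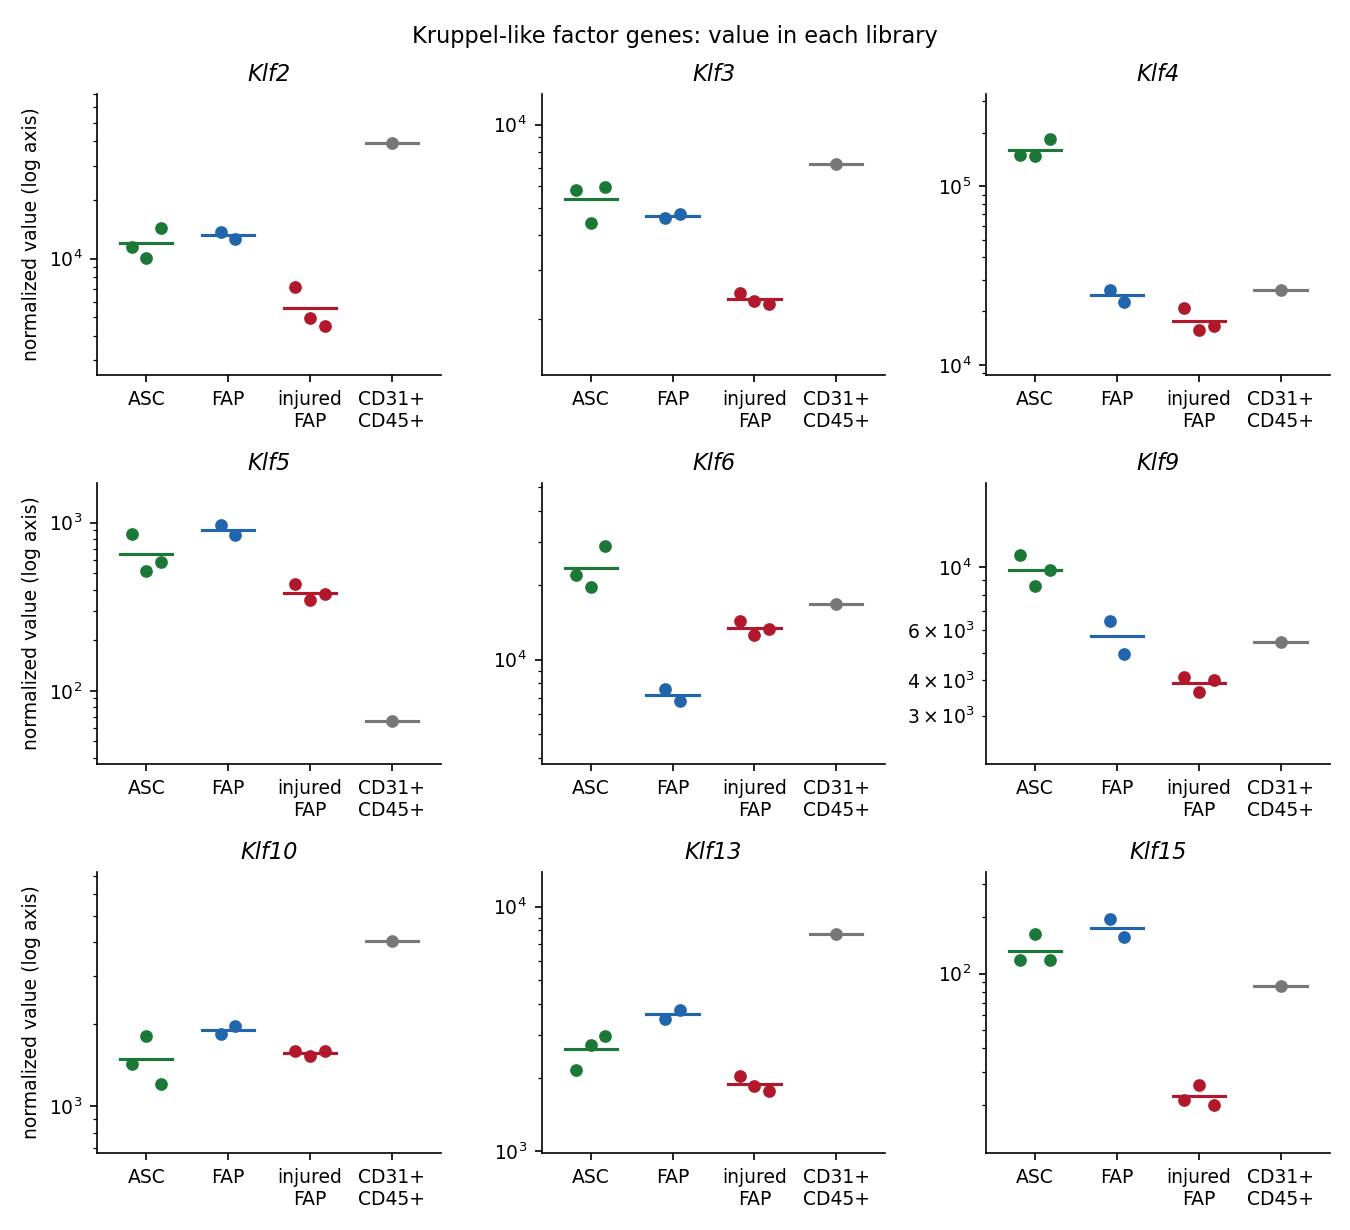
Normalized value of each Kruppel-like factor in each library on a log axis, by group, with a bar at the group mean. Klf4 is far higher in the 3 ASC libraries than in the other libraries, Klf15 lowest in the 3 injured FAP libraries, and Klf2 highest in the CD31+CD45+ library.

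**Figure D2:**
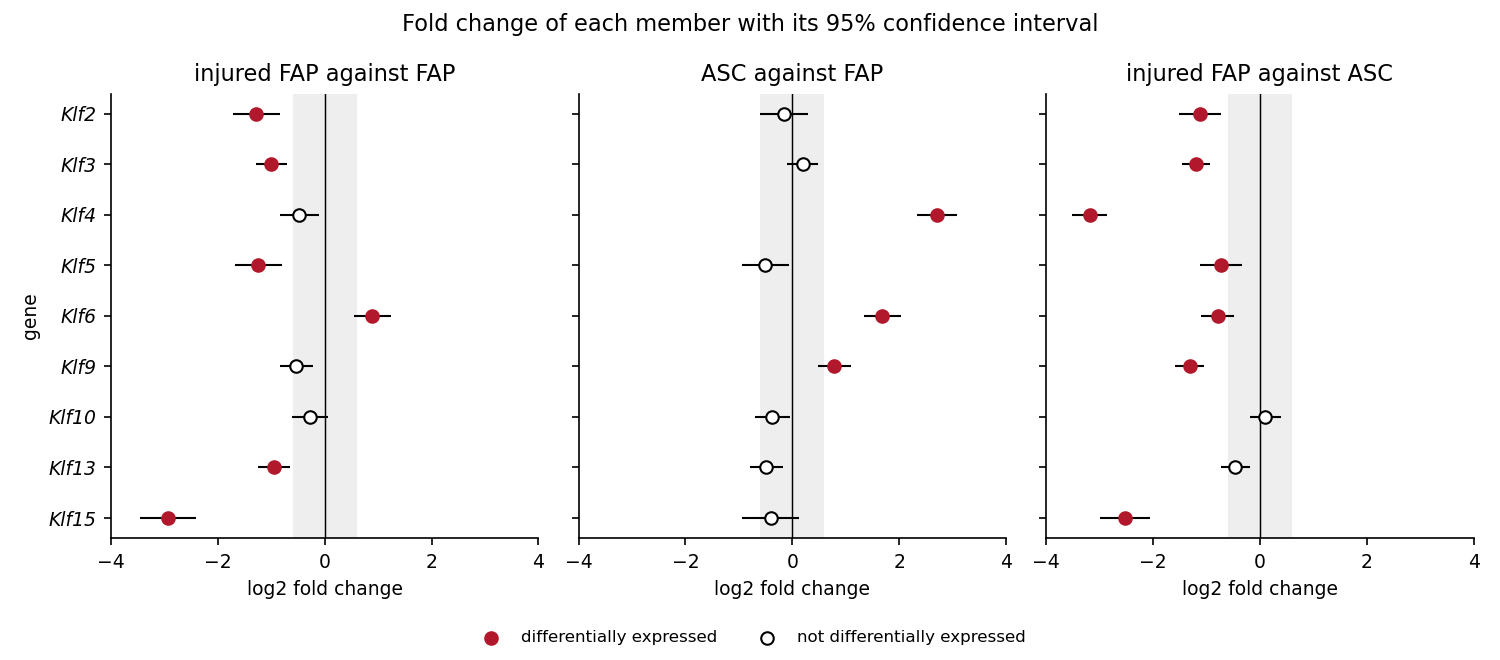
Log2 fold change of each Kruppel-like factor (points) with its 95% confidence interval (lines) from limma in the 3 comparisons. Filled points are differentially expressed, and the shaded band marks a log2 fold change within 0.58 of 0.

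Klf4, a regulator of pluripotency, epithelial barriers and vascular quiescence, had values of 149806, 147378 and 184014 in ASCs, 26355 and 22619 in FAPs and 20767, 15751 and 16549 in injured FAPs. Every ASC library was above every FAP library of either kind, and the injured FAPs lay just below the FAPs without overlap. ASCs averaged 160399 ± 20487 (SD, n = 3) and FAPs 24487 ± 2641 (SD, n = 2), a ratio of 6.55, and the log2 fold change was 2.71 ± 0.17 (SE; limma, Benjamini-Hochberg adjusted p = 6.44e-07). Against injured FAPs, whose mean was 17689 ± 2695 (SD, n = 3), the ratio was 9.07, and the log2 fold change of -3.18 was -2.44 with quantile normalization and -2.49 with equal library totals. The difference between injured FAPs and FAPs had a log2 fold change of -0.48 (95% confidence interval -0.84 to -0.11), which did not reach the fold threshold. It passed without FAP replicate 2 (-0.59) and without injured FAP replicate 1 (-0.60), so that call rested on single libraries.

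Klf2, which restrains preadipocyte differentiation and inflammation, had values of 11514, 10038 and 14319 in ASCs, 13699 and 12677 in FAPs and 7180, 4944 and 4525 in injured FAPs. ASCs and FAPs overlapped, and each injured FAP library was below them all. The log2 fold change after injury was -1.28 ± 0.20 (SE; limma, Benjamini-Hochberg adjusted p = 0.00027). Injured FAPs were also lower than ASCs, with a log2 fold change of -1.12 (95% confidence interval -1.52 to -0.73), which was -0.42 and no longer called with equal library totals. ASCs were not called different from FAPs (-0.16), but were called lower with quantile normalization (-0.80) and with equal totals (-0.72). The spread between replicates was larger for Klf2 in injured FAPs than for any other factor there, with a coefficient of variation of 25.7%.

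Klf6, a wound-responsive factor and activator of TGF-beta pathway genes, had values of 21913, 19611 and 28938 in ASCs, 7623 and 6787 in FAPs and 14344, 12609 and 13249 in injured FAPs. The 3 groups did not overlap, with ASCs highest and FAPs lowest. It was the only one of the 9 factors called higher after injury, with a log2 fold change of 0.90 ± 0.16 (SE; limma, Benjamini-Hochberg adjusted p = 0.0006). ASCs stood above FAPs with a log2 fold change of 1.69 ± 0.16 (SE), which was 0.89 with quantile normalization. The lower level in injured FAPs than in ASCs, a log2 fold change of -0.79, was not called with quantile normalization (-0.01) or with equal library totals (-0.09).

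Klf10, first described as a gene induced early by TGF-beta, had values of 1432, 1809 and 1210 in ASCs, 1832 and 1965 in FAPs and 1597, 1523 and 1589 in injured FAPs. Both FAP libraries were above the others by a small margin, and ASCs and injured FAPs overlapped. As deposited, no comparison of Klf10 reached the fold threshold, and the log2 fold change after injury was -0.27 (95% confidence interval -0.60 to 0.05). ASCs compared with FAPs were at -0.37, and were called lower with quantile normalization (-0.65), a common 75th percentile (-0.584) and equal library totals (-0.94). Injured FAPs were called higher than ASCs with equal totals (0.80, from 0.10).

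Klf15, a glucocorticoid-induced regulator of amino acid, lipid and glucose metabolism, had values of 119, 162 and 118 in ASCs, 195 and 156 in FAPs and 21.2, 25.6 and 19.8 in injured FAPs. The 3 injured FAP libraries were far below the other 5, among which ASCs and FAPs overlapped. This was the largest change of the 9 factors after injury, with a ratio of FAP to injured FAP means of 7.91 and a log2 fold change of -2.93 ± 0.24 (SE; limma, Benjamini-Hochberg adjusted p = 3.47e-06). Compared with ASCs the log2 fold change in injured FAPs was -2.52 (95% confidence interval -2.99 to -2.05), and -1.84 with equal library totals. In bulk RNA, fewer cells that express a gene and less RNA of it per cell cannot be told apart.

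Klf5, an early adipogenic factor that is also abundant in smooth muscle and epithelium, had values of 855, 518 and 585 in ASCs, 961 and 849 in FAPs and 429, 346 and 376 in injured FAPs. Injured FAPs were lowest without overlap, and ASC replicate 1 lay within the range of the FAPs. The log2 fold change after injury was -1.24 ± 0.20 (SE; limma, Benjamini-Hochberg adjusted p = 0.00031). Against ASCs it was -0.74, and the call ended without ASC replicate 1 (-0.53) and with equal library totals (-0.0395). ASCs compared with FAPs were at -0.50, and were called lower under quantile normalization (-0.61), a common 75th percentile (-0.71) and equal totals (-1.07) and without ASC replicate 1 (-0.71).

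Klf9, a partner of nuclear receptors that is induced by glucocorticoids, had values of 11025, 8596 and 9743 in ASCs, 6434 and 4959 in FAPs and 4095, 3643 and 4004 in injured FAPs. The groups did not overlap, with ASCs highest and injured FAPs lowest. ASCs stood above FAPs with a log2 fold change of 0.79 ± 0.14 (SE; limma, Benjamini-Hochberg adjusted p = 0.00075), and it was not called with quantile normalization (0.13), a common 75th percentile (0.576) or equal library totals (0.22). After injury it was -0.53, short of the fold threshold, and it passed with quantile normalization (-0.73), with a common 75th percentile (-0.63) and without FAP replicate 2 (-0.72).

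Klf13, a close relative of Klf9 with roles in lymphocytes and heart, had values of 2147, 2716 and 2973 in ASCs, 3468 and 3795 in FAPs and 2030, 1844 and 1769 in injured FAPs. Here FAPs were highest and injured FAPs lowest, without overlap of the groups. The log2 fold change after injury was -0.95 ± 0.14 (SE; limma, Benjamini-Hochberg adjusted p = 0.00016). Between ASCs and FAPs it was -0.49, short of the fold threshold, and it was called with quantile normalization (-0.90), a common 75th percentile (-0.70) and equal library totals (-1.05) and without ASC replicate 3 (-0.59). Against ASCs injured FAPs were at -0.46, at -0.60 and called without ASC replicate 1, and at 0.24 with equal totals.

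Klf3, a repressor that acts through CtBP proteins, had values of 5825, 4432 and 5974 in ASCs, 4618 and 4747 in FAPs and 2479, 2319 and 2254 in injured FAPs. ASCs and FAPs overlapped, and the injured FAP libraries were below both. The log2 fold change was -0.995 ± 0.13 (SE; limma, Benjamini-Hochberg adjusted p = 8.43e-05) against FAPs and -1.19 (95% confidence interval -1.45 to -0.93) against ASCs, and the latter was -0.49 and no longer called with equal library totals. ASCs compared with FAPs were at 0.20, and at -0.34, -0.0138 and -0.37 with quantile normalization, a common 75th percentile and equal totals. Klf13 overlaps genes on the opposite strand, and the strand setting of the counting is not given in the sources used here. Klf9 holds a microRNA gene on its own strand, and Klf3 overlaps annotated genes on both strands, so the values of these 3 factors are uncertain as far as reads are shared.

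The scaling of the libraries bore on the comparisons with ASCs. A set of 100 genes, the most abundant of each library, held 24.7% to 26.1% of the total in injured FAPs, 35.9% and 36.3% in FAPs and 40.3% to 43.1% in ASCs. Equal totals for all libraries, an alternative chosen after seeing the data, moved the median log2 fold change of all tested genes from 0.005 to -0.56 in ASCs compared with FAPs and from 0.02 to 0.71 in injured FAPs compared with ASCs. The share of higher genes among those called moved from 49.6% to 20.1% in the first of these comparisons and from 49.3% to 81.3% in the second. A common 75th percentile moved the median to -0.20 and the share to 37.2% in ASCs compared with FAPs, and the median to 0.13 in injured FAPs compared with ASCs.

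Under equal totals 5 factors were lower in ASCs than in FAPs (Klf2, Klf5, Klf10, Klf13 and Klf15), with log2 fold changes of -0.72 to -1.07 beside the median of -0.56. Klf4 and Klf6 remained higher in ASCs under all 3 other scalings, Klf4 at 2.14 and Klf6 at 1.12 with equal totals and Klf4 at 2.01 and Klf6 at 0.89 with quantile normalization. In injured FAPs compared with ASCs 3 factors stayed lower with equal totals (Klf4, Klf9 and Klf15), Klf10 was higher (0.80), and the sign of Klf13 turned (0.24). After injury the direction of all 9 factors was the same under the 4 scalings, and Klf2, Klf3, Klf5, Klf6, Klf13 and Klf15 were called under each.

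**Figure D3:**
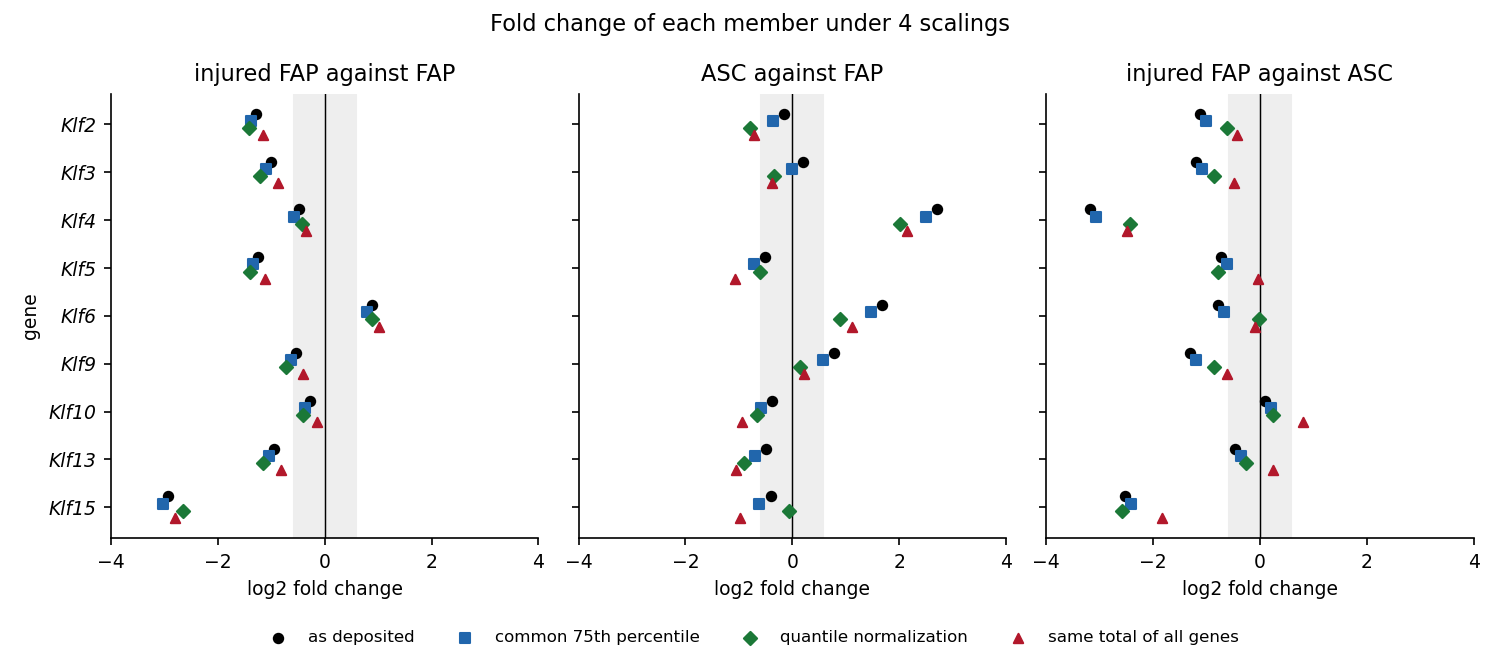
Log2 fold change of each Kruppel-like factor in the 3 comparisons under 4 scalings of the libraries (symbols), with the band within 0.58 of 0 shaded. The scalings lie close together for injured FAPs against FAPs and apart for both comparisons with ASCs, where Klf3 turns sign in ASCs against FAPs under the 3 other scalings and Klf13 in injured FAPs against ASCs with equal totals.

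Levels were compared between the factors as value per kb of merged exons. In ASCs Klf4 stood at 52607 ± 6719 (SD, n = 3) per kb, which was 77.6% of the sum of the 9 factors and rank 13 among the 17082 genes above 0 on this scale. Klf2 (6474 per kb) and Klf6 (5349 per kb) followed and overlapped, then Klf9 (2033 per kb). Klf3, Klf10 and Klf13 lay at 481, 355 and 347 per kb, each overlapping the next, and Klf5 (125 per kb) and Klf15 (47.6 per kb) were lowest.

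In FAPs Klf4 and Klf2 were near each other at 8031 ± 866 and 7140 ± 391 (SD, n = 2) per kb, without overlap, and made up 41.0% and 36.5% of the sum. In injured FAPs Klf4 was still first at 5801 ± 884 (SD, n = 3) per kb, and Klf6 (3052 per kb) and Klf2 (3005 per kb) overlapped. The share of Klf6 in the sum was 8.38% in FAPs and 22.5% in injured FAPs, and that of Klf2 36.5% and 22.1%. Klf15 was last in both groups, at 62.9 and 7.95 per kb. Together the 9 factors summed to 12362 to 15778 per kb in injured FAPs, 20697 and 18473 in FAPs and 61368 to 78089 in ASCs. With the longest transcript in place of merged exons, 9 of 9 factors kept their place in ASCs and 7 in each FAP group, where Klf3 and Klf13 changed places. In ASCs Klf3 was then at 1036 per kb and no longer overlapped Klf10 (487 per kb), and Klf5 was at 195 per kb.

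**Figure D4:**
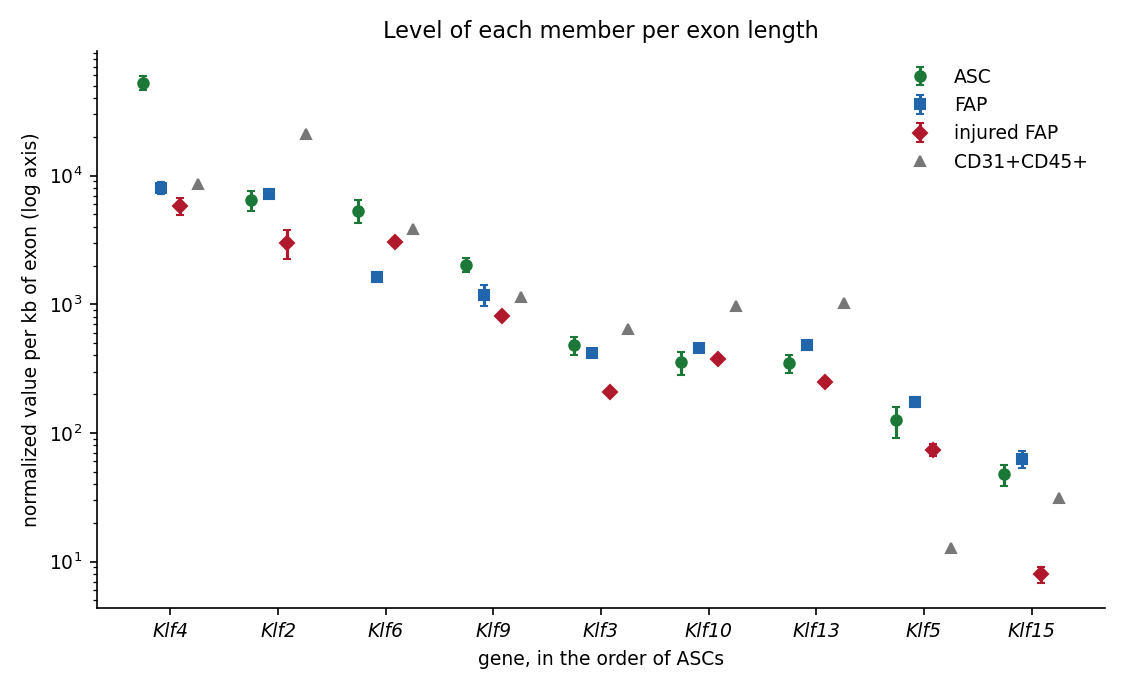
Normalized value per kb of merged exons for each Kruppel-like factor on a log axis, as group mean with SD (3 ASC, 2 FAP and 3 injured FAP libraries) and as the single CD31+CD45+ value. Klf4 is first in the 3 progenitor groups and Klf2 in the CD31+CD45+ library.

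The CD31+CD45+ library, from injured muscle, gave the level of the factors in other cells of the tissue, with no replicate and no test. Compared with the mean of injured FAPs on the log2 scale, 5 factors were higher by more than 0.58 (Klf2, Klf3, Klf10, Klf13 and Klf15), 1 was lower (Klf5) and 3 were within it, beside 35.1% higher and 32.7% lower among 13865 genes. Klf2 stood at 39207 (exact 95% Poisson interval 38723 to 39696, for counting error only), 7.06 times the injured FAP mean. Klf5 was at 65.9 (exact 95% Poisson interval 47.5 to 89.1), and the injured FAP mean was 5.82 times higher. Klf4 was at 26104, Klf6 at 16732, Klf9 at 5460, Klf3 at 7190, Klf13 at 7728, Klf10 at 4035 and Klf15 at 86.3.

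Markers of other cell types were measured beside these results, and their counts after injury stand beside 24.9% higher and 27.7% lower among all tested genes. The 12 endothelial genes summed to 1734 to 2199 in injured FAPs, 7261 and 4934 in FAPs, 5218 to 7006 in ASCs and 350425 in the CD31+CD45+ library. Tek was the most abundant in ASCs and FAPs and Cdh5 in injured FAPs. In ASCs Tek alone stood at 5986, 4841 and 6700. Vwf, Emcn and Cldn5 were at 0 in both FAP libraries, Pecam1 also in FAP replicate 2. Of 11 tested endothelial genes 7 were lower in ASCs than in FAPs, beside 23.8% of all tested genes. In that comparison 3 were higher (Tek, Emcn and Cldn5), beside 23.4%. Emcn and Cldn5 were low in ASCs (means 9.40 and 14.8) and called against 0 in FAPs, so the size of that change is not defined. After injury 6 of 11 tested endothelial genes were lower. Both genes called higher, Emcn and Cldn5, were at 0 in the FAP libraries and passed the filter through the other groups, so the size of their change is not defined. Without FAP replicate 1, 4 of 12 were lower and 4 were called higher, each of these 4 at 0 in the remaining FAP library.

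The 8 genes of smooth muscle and pericytes summed to 8512 to 8966 in injured FAPs, 21134 and 18341 in FAPs, 639 to 1234 in ASCs and 88810 in the CD31+CD45+ library. After injury 7 of the 8 were lower and 0 higher, the direction also seen for Klf2, Klf3, Klf5, Klf13 and Klf15, and their part in those falls was not tested. Rgs5 was the most abundant in FAP replicate 1, Acta2 in FAP replicate 2 and Cspg4 in injured FAPs, and none was at 0. The 13 leukocyte genes summed to 682, 3012 and 574 in injured FAPs, 292 and 546 in FAPs, and 417 to 515 in ASCs, with Cd68 the most abundant except in ASC replicate 2 (Csf1r) and injured FAP replicate 2 (Lyz2). In both FAP libraries 9 of them were at 0, among them Ptprc, Lyz2, Cd74 and Csf1r. After injury 6 of 9 tested leukocyte genes were called higher, and without injured FAP replicate 2, 4 of 6 were higher and 1 lower. The genes called higher were all at 0 in both FAP libraries and passed the filter through the other groups, so the size of their change is not defined and no median is given. Without injured FAP replicate 2, the library with the most leukocyte signal, the same counts of factors were called after injury, 5 lower and 1 higher. The remaining injured FAP libraries still held leukocyte genes (682 and 574 summed). The part of leukocytes in the levels of the factors was not tested.

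Genes of skeletal muscle fibres summed to 196 to 252 in injured FAPs, 734 and 855 in FAPs and 110 to 158 in ASCs, and 4 of 5 tested were lower after injury, but 2 of 4 without FAP replicate 1 and 2 with quantile normalization. The 4 satellite cell genes summed to 206 to 267 in injured FAPs, 270 and 378 in FAPs and 1.26 to 9.22 in ASCs, with 1 of 3 tested lower after injury and 0 of 2 without FAP replicate 2. The 7 adipocyte genes, led by Plin4, summed to 4.58 to 18.6 in injured FAPs, 55.2 and 65.9 in FAPs and 341 to 361 in ASCs, with 2 of 3 tested lower after injury. Plin1, called lower among these, had a mean of only 9.46 in FAPs and passed the filter through ASCs (47.1). Of the other genes called lower, Myh1, Mb and Pax7 passed it through FAPs, where they were highest (means 29.8, 46.4 and 48.6). The filter itself thus favoured a fall for these 3 genes. What part muscle fibres, satellite cells and adipocytes had in the levels of the Kruppel-like factors was not tested.

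Several Kruppel-like factors, Klf2, Klf4, Klf6, Klf9 and Klf10 among them, are induced within minutes as immediate early genes, also while tissue is dissociated. The adipose tissue and the muscle were digested with different enzymes, which cannot be told apart from the tissue in the comparisons with ASCs. Of 21 immediate early and dissociation genes 10 were higher (47.6%) and 5 lower (23.8%) in ASCs than in FAPs, beside 23.4% and 23.8% of all tested genes, with Fosl1 (log2 fold change 6.24) and Fosb (2.79) at one end and Hspa1b (-2.66) and Hspa1a (-2.38) at the other. With quantile normalization 5 were higher and 7 lower, with equal totals 7 and 7, and 10 and 3 without ASC replicate 1. In injured FAPs compared with FAPs 4 were higher (19.0%) and 13 lower (61.9%), beside 24.9% and 27.7% of all tested genes, the widest being Fosl1 (3.94) and Hspa1a (-2.90). Their summed value was 354186 to 401607 in injured FAPs, 869995 and 771113 in FAPs and 912690 to 1149402 in ASCs. As a share of the total of each library the sum was 1.72% to 1.90% in injured FAPs, 3.80% and 3.39% in FAPs and 2.52% to 3.36% in ASCs. The sum was thus lowest in injured FAPs on both scales, whereas ASCs were above FAPs in the values and below them in the shares. Of the factors named above as immediate early genes, Klf4, Klf6 and Klf9 were highest in ASCs. Klf9 was called above FAPs only as deposited, and not under the other scalings. In injured FAPs compared with FAPs Klf6 was higher and Klf2 lower, and Klf4 (-0.48), Klf9 (-0.53) and Klf10 (-0.27) did not reach the threshold. The part of dissociation in the levels of the factors was not tested.

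Other members of the family were read from the same fit. Of 8 further Kruppel-like factor genes 6 were tested, and Klf1 (at most 4.53) and Klf17 (0 in every library) were not. After injury 4 of the 6 were lower and 0 higher, beside 27.7% and 24.9% of all tested genes, with Klf12 at -1.69 ± 0.18 and Klf7 at -0.81 ± 0.15 (log2 fold change ± SE). ASCs had lower levels of 3 of them (beside 23.8% of all tested genes), with Klf11 at -1.26 ± 0.18, and of 4 with a common 75th percentile and with equal totals. Under the 4 scalings 0 of the 6 were called higher in ASCs. The Sp factors, which bind the same GC boxes, had 4 of 9 genes tested, of which Sp2 was lower after injury (-0.59) and in ASCs (-0.70). The call after injury was lost with equal totals, by edgeR and by DESeq2, with a replicate block and without injured FAP replicate 3. Without FAP replicate 2 the log2 fold change of Sp2 after injury was -0.54, short of the fold threshold. With equal totals 4 of the 4 Sp genes were lower in ASCs. Their median log2 fold change was then -0.90, beside -0.56 for all tested genes.

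Partners of the factors were read in the same way. Of 12 cofactors 2 were higher after injury (16.7%, beside 24.9% of all tested genes), Hdac2 (1.04) and Hdac1 (0.89), and 0 were lower (beside 27.7%), while quantile normalization gave 2 lower, equal totals gave 4 higher, and 1 was lower without FAP replicate 1 or injured FAP replicate 1. In ASCs compared with FAPs 2 were higher (16.7%, beside 23.4%), Crebbp (0.88) and Kat2b (0.63). Both calls were lost with quantile normalization, where 1 cofactor was lower, and with equal totals, where 6 were lower. With equal totals the median log2 fold change was -0.57 for the cofactors and -0.56 for all tested genes. Kat2b was also not called with a common 75th percentile (0.42), by edgeR (0.57) or without FAP replicate 2 (0.48). The route from the kinase ERK5 (Mapk7) through MEF2 factors is known to induce Klf2 and Klf4 in endothelium, and 4 of its 9 genes (44.4%, beside 27.7% of all tested genes) were lower after injury, led by Mapk7 (-1.17), while Klf2 was lower and Klf4 did not reach the threshold.

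The factors with roles in adipogenesis were set beside 12 other transcription factors with such roles. This list was not split into factors that promote and factors that restrain adipogenesis. After injury 8 of the 12 were lower (66.7%, beside 27.7% of all tested genes). Among those with a mean value of at least 100 Pparg (log2 fold change -2.47) and Zfp423 (-2.25) fell most. Gata3, one of the 8, was at 11.4 and 8.47 in FAPs and at most 2.35 in injured FAPs, no more than 3 reads. It passed the filter through ASCs (mean 47.2). Cebpb was higher (0.66), a call that was lost with quantile normalization, with a common 75th percentile and without FAP replicate 2. Of the Kruppel-like factors known to promote adipogenesis Klf5, Klf13 and Klf15 were lower in the same comparison, Klf6 was higher, and Klf4 and Klf9 did not reach the threshold. Klf2 and Klf3, known to restrain it, were both lower. Between ASCs and FAPs 5 of the 12 listed factors were higher in ASCs and 4 lower (3 and 5 with equal totals). Gata3 was among the 5, and passed the filter through ASCs, where it was highest. These counts stand beside 23.4% and 23.8% of all tested genes. Among the listed factors with a mean of at least 100 Cebpb (1.96) and Ebf1 (1.40) were at one end and Zfp467 (-2.60) and Zfp423 (-0.95) at the other. Klf4, Klf6 and Klf9 were higher in ASCs in this comparison, Klf9 as deposited only among the 4 scalings.

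Klf9 and Klf15 are induced by glucocorticoids. Beside 24.9% of all tested genes higher and 27.7% lower, of 12 other glucocorticoid-responsive genes 3 were higher and 5 lower after injury. Angptl4 (3.65) and Lcn2 (2.09) rose most, and Cdkn1c (-2.93) and Tsc22d3 (-2.66) fell most, and Lcn2 was not called without FAP replicate 2 (1.61). For Klf10 and Klf6 the reference was a list of 13 genes induced early by TGF-beta, of which 4 were higher and 4 lower after injury (30.8% each), with Tgif1 at 1.48 and Id1 at -1.38. Klf9, Klf10 and Klf15 are also clock-controlled in several tissues, and 4 of 14 clock genes (28.6%) were lower after injury and 0 higher, with Npas2 at -1.41 and Nr1d1 at -1.37. Without FAP replicate 1, 7 of the 14 were lower. Of 14 genes known as targets of Kruppel-like factors 3 were higher after injury and 1 lower, including Ccnd1 (1.58) and Lgals3 (1.57), and 2 were higher and 2 lower without FAP replicate 2. The shares of higher glucocorticoid-responsive and target genes, of lower clock genes and of both directions in the TGF-beta list were near those of all tested genes, for the clock genes not without FAP replicate 1.

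The gene most like each factor was the one with the smallest root mean square difference of centred log2(value + 1) over the 8 progenitor libraries, among 10584 genes with a mean of at least 100. These were Acy3 for Klf2 (0.14), Marchf2 for Klf3 (0.0747), Adh7 for Klf4 (0.169), Ubald1 for Klf5 (0.081), Wnt5b for Klf6 (0.117), Vat1 for Klf9 (0.0844), Trim34a for Klf10 (0.0994), Eif2ak3 for Klf13 (0.0594) and Axin2 for Klf15 (0.181). Among the 9 factors themselves Klf2 and Klf3 were nearest each other (0.215), and Klf4 was far from all others (0.927 to Klf9, the nearest).

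Promoters from RefSeq (GRCm38.p6) were matched for 7 of the 9 factors, all but Klf5 and Klf10. Each was searched on both strands in the 250 bases before the start for motifs of the family itself and of other regulators, beside 32851 promoters in all. G and C made up 59.6% to 78.4% of these 250 bases in the 7 promoters. The promoters they stand beside were not matched for this, which limits the comparison for motifs rich in G and C. The GC box GGGCGG, which the family binds, was in 6 of 7 and in 32.7% of all promoters, and the shorter CACCC was in 5 of 7 and 52.0%. The E-box CACGTG, which clock and MYC proteins bind, was in 3 of 7 (Klf4, Klf6 and Klf15) and in 6.02% of all promoters. The AP-1 motif TGANTCA was in 1 (Klf9) and in 6.75%. The cyclic AMP element TGACGTCA, the glucocorticoid half-site TGTTCT, the MEF2 core TATTTATA and the CArG box were in 0 of 7, against 1.55%, 16.1%, 1.56% and 1.47%. GC boxes overlapped each other in Klf4, a GC box overlapped CACCC in Klf3 and in Klf13, and in Klf9 the AP-1 motif overlapped CACCC.

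The 3 promoters with an E-box are shown, since they belong to the factor highest in ASCs, the factor higher after injury and the factor with the largest fall. They are 120-base stretches, 5′ to 3′ on the strand of the gene, with the E-box in capitals: chr4:55532595-55532714 on the minus strand for Klf4, chr13:5861369-5861488 on the plus strand for Klf6 and chr6:90462326-90462445 on the plus strand for Klf15.
Klf4: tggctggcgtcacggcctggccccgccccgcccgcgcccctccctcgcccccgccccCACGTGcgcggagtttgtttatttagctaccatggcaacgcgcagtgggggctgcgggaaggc
Klf6: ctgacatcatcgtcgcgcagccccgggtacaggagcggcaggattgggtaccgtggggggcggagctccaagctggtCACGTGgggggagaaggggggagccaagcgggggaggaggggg
Klf15: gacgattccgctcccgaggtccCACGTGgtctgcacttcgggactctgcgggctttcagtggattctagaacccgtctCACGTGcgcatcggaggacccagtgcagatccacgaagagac
A match is a description of the letters, and binding was not measured. Klf15 held 2 E-boxes and the others 1 each, while the values of the 3 genes differed in direction between the groups.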

How the data were processed

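HISAT2 (mm10) and Subread were used by the authors to align and count the reads, and a normalized signal per gene and library was deposited. Divided by the worth of 1 read, 100% of each library's values were whole (tolerance 0.01), and 3 reads were worth 2.29 to 4.71. Values were tested as log2(value + 1), which understates changes of low genes, with limma 3.58.1 in R 4.3.3 (5 residual degrees of freedom). On the recovered reads edgeR 4.0.16 called 7303 genes after injury, 6450 for ASCs versus FAPs and 7000 for injured FAPs versus ASCs. DESeq2 1.42.0 was a further alternative. Positions and exon lengths came from GENCODE M21 (GRCm38). The members and lists were chosen with earlier results of these data known. Beyond the members, genes named were at most 2 rises and 2 falls per list and comparison, among called genes with a mean of at least 100, and the gene most like each member. Markers most abundant, at 0, called from 0 or unlike their sum, and family genes not tested, were named after their values were seen. So were genes said to have passed the filter through 1 group. One gene that this rule names is not reported here. The tests were checked on simulated reads. Protein sequences were not used here.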

Additional observations from a re-analysis of the deposited data

How the results depend on the processing

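For the 9 Kruppel-like factors in 3 comparisons, 540 fold changes were recomputed under 20 alternatives, and 505 kept their direction and their side of the threshold, 21 passed it newly, 9 no longer passed it and 5 changed sign. In ASCs against FAPs the count of lower factors, 0 as deposited, was 4 with quantile normalization, 3 with a common 75th percentile, 5 with equal library totals and 0 to 1 with single libraries left out. Klf3 turned to -0.34, -0.0138 and -0.37 in these 3 scalings. In injured FAPs against ASCs equal totals gave 1 higher and 3 lower factors and turned Klf13 to 0.24, and with single libraries left out Klf10 ranged from -0.0361 (without ASC replicate 3) to 0.25. Equal totals were chosen after seeing the data. By the correlation in place of the difference, 2 of 9 most like genes were the same.

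Libraries with the same replicate number did not deviate together from their group means (correlations of -0.0545 to 0.0446). The deviations of the 2 FAP libraries mirror each other, so this check could not decide whether the numbers pair the samples. With a replicate block 7046, 6287 and 6861 genes were called in injured FAPs against FAPs, ASCs against FAPs and injured FAPs against ASCs, with 5 lower and 1 higher, 0 lower and 3 higher, and 7 lower and 0 higher factors. With a FAP library left out, the remaining one is assumed to vary like the other groups. Pseudocounts, filters and count tools changed no count of called factors. The 2 FAP libraries and the single CD31+CD45+ library limit the precision, and pooled animals hide the spread between mice.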
